A study of Mus musculus with 8 samples.

Results

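The miR-15 and miR-16 group of mouse miRNAs was followed here through the hairpins of miR-15a, miR-15b, miR-16 (2 hairpins), miR-195a and miR-497. The members were chosen by name and not by a cut on measured values, but earlier results of these data were known. They are 6 of 1174 annotated hairpins. They can give 11 different mature arms, since both miR-16 hairpins end in an identical 5p arm, and 8 of these were among the 433 arms counted in the series. The other 3 arms (miR-15a-3p, miR-195a-3p and miR-497a-3p) had too few reads to be defined from the reads and were counted apart by their reference sequence.

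Small RNAs were sequenced from NIH-3T3, an immortalised mouse fibroblast line, with 8 libraries over 2 experiments. For the serum experiment, cells passaged in 10% serum were starved for 48 h, given 20% serum, and collected 0 h (labelled G0), 12 h (G1), 16 h (S), 20 h (G2/M) and 24 h (G1) later. For the contact experiment, cells grown in 10% serum were seeded at 12% confluency. They were collected at day 0 (asynchronous) and at days 3 and 5 (both G0). Each condition is 1 library, so values between single libraries carry counting error only, and the p-values below measure the spread between these libraries. No library of growing cells precedes the starvation among the labels, and serum 0 h thus differs from the released libraries both in phase and in added serum.

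A miRNA is cut from a hairpin transcript, and the retained strand guides Argonaute to messenger RNAs that pair with its seed, bases 2 to 8. The miR-15 and miR-16 group is known as a brake on cell division, since it represses D-type and E-type cyclins and their kinases. The miR-15a and miR-16-1 hairpins lie in Dleu2, a noncoding RNA gene in a region often lost in chronic lymphocytic leukaemia, whereas the miR-15b and miR-16-2 hairpins lie in Smc4, which encodes a condensin subunit of mitotic chromosomes. The miR-497 and miR-195a pair is known for its part in the withdrawal of heart muscle cells from division.

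The 5p arms of the members are shown because all 5 carry the seed AGCAGCA and differ only downstream of it or at base 1. The mature sequences were taken from RefSeq (GRCm38.p6) and are written 5′ to 3′ with the seed in capitals.
miR-15a-5p: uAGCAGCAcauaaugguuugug
miR-15b-5p: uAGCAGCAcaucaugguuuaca
miR-16-5p: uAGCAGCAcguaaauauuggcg
miR-195a-5p: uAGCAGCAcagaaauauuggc
miR-497a-5p: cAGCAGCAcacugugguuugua
Within the first 20 bases, which were used for counting, miR-15a-5p and miR-15b-5p differ at 2 positions, as do miR-16-5p and miR-195a-5p. All other pairs of members differ at 4 to 9 positions.

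The 3p arms that tell the loci apart are shown because each has its own seed, so that miR-16-1 and miR-16-2 can be separated only on this side.
miR-15b-3p: cGAAUCAUuauuugcugcucua
miR-16-1-3p: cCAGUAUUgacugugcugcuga
miR-16-2-3p: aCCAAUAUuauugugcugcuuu
The counts of miR-16-2-3p below are of reads that start 1 base after this RefSeq start, since that was by a narrow margin the most common start over these libraries.

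In GRCm38, Mir16-1 (chr14:61631880-61631972) and Mir15a (chr14:61632027-61632110) lie 54 bp apart on the minus strand, the first in an exon and the second in an intron of Dleu2. Mir15b (chr3:69009772-69009835) and Mir16-2 (chr3:69009902-69009996) lie 66 bp apart on the plus strand in introns of Smc4. Mir497 (chr11:70234717-70234800) and Mir195a (chr11:70235042-70235135) lie 241 bp apart on the plus strand. Mir497 overlaps the antisense hairpin Mir497b, and Mir195a overlaps no other annotated gene.

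The serum libraries held 6121247 to 8512472 reads, of which 1.85% to 12.6% were counted for a miRNA, and the contact libraries held 707202 to 801593 reads, of which 46.1% to 57.7% were. Reads counted for a miRNA ranged from 137585 (serum 24 h) to 892528 (serum 16 h). All 7 fibroblast markers on the marker list had reads in every library, at 6.14% to 32.8% of miRNA reads in sum. Epithelial markers summed to 685 reads at serum 0 h and 0 to 13 reads elsewhere, and blood markers to 107 at serum 0 h and 0 to 4 elsewhere. Pluripotent markers summed to 200 reads at serum 12 h and 0 to 52 elsewhere, muscle markers to 39 to 224, and neural markers to 0 at serum 12 h and 86 to 874 elsewhere. The liver marker had no counted arm. The serum 12 h library stood apart, with reads for 233 miRNAs against 304 to 408 in the other 7.

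Reads of the members were mostly miR-16-5p. The 5 members together made up 2.20%, 1.75%, 2.24%, 2.29% and 2.19% of miRNA reads at serum 0, 12, 16, 20 and 24 h, and 1.17%, 1.83% and 0.921% at contact days 0, 3 and 5. The sum thus stood between 1.75% and 2.29% in the serum libraries and was lowest at contact days 0 and 5. miR-16-5p took 72.2%, 83.9%, 75.4%, 73.5% and 77.8% of the members' reads in the serum libraries and 56.1%, 72.0% and 67.2% in the contact libraries, in the same order. By reads it ranked 12th to 15th among all miRNAs in the serum libraries and at contact day 3, and 22nd at contact days 0 and 5. miRNAs are captured unequally in library preparation, which was not measured here, so the order among members is one of reads.

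**Figure D1:**
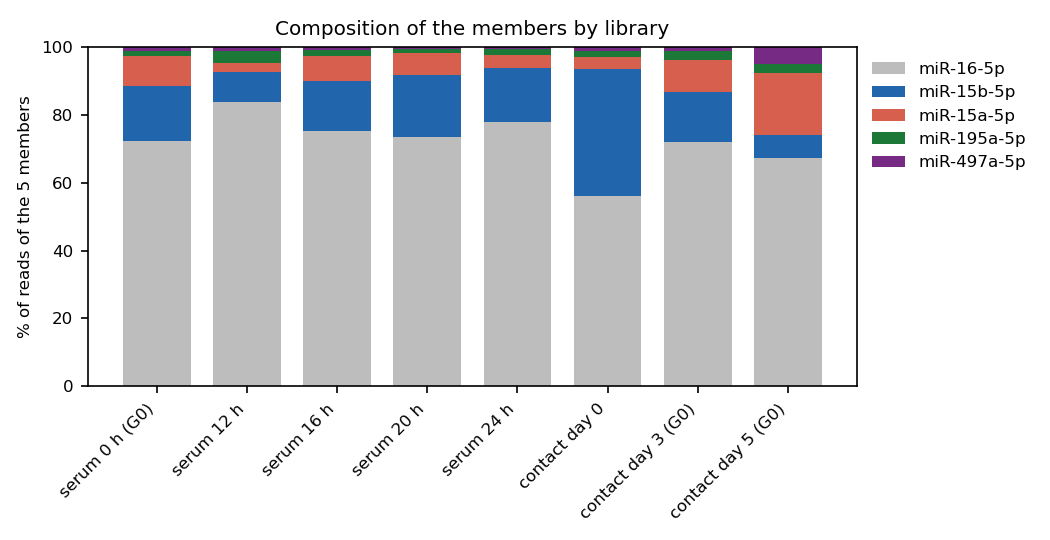
Stacked bars give each member's share (%) of the summed reads of the 5 members in each of the 8 libraries. miR-16-5p (light grey) is the widest band throughout, and the miR-15b-5p band (blue) narrows from 37.3% to 14.8% and 6.86% over contact days 0, 3 and 5 while the miR-15a-5p band (orange) widens from 3.63% to 9.42% and 18.3%.

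Levels are given as counts per 1000000 (CPM) after TMM scaling, which assumes that most miRNAs do not differ between libraries. This was not met everywhere. After scaling, 38% of 158 compared arms were at least 2-fold higher and 27.2% at least 2-fold lower at contact day 5 than at day 0. The level of miR-16-5p was 11072, 10599.7, 14465, 13039 and 12969 CPM at serum 0, 12, 16, 20 and 24 h, and 11679.7, 16262 and 11095 CPM at contact days 0, 3 and 5. It therefore varied little, with the highest library at contact day 3 and the lowest at serum 12 h. As a share of miRNA reads, however, it stood at 1.47% to 1.70% in the serum libraries and 0.659%, 1.31% and 0.619% in the contact libraries, so the likeness of the 2 experiments rests on the scaling.

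miR-15a-5p stood at 1336, 351, 1411, 1177 and 626 CPM in the serum libraries and 755, 2129 and 3018 CPM in the contact libraries. Contact days 3 and 5 were the highest 2 libraries, and serum 0 h lay between serum 16 h and 20 h. miR-15b-5p, its relative in Smc4, stood at 2529, 1104, 2832, 3228 and 2687 CPM in the serum libraries and 7768, 3346 and 1133 CPM in the contact libraries. Here contact day 0 was the highest library, with serum 12 h and contact day 5 the lowest.

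The other locus gave fewer reads. miR-195a-5p stood at 229, 429.5, 323, 207 and 271 CPM in the serum libraries and 386, 607 and 458 CPM in the contact libraries. miR-497a-5p stood at 176, 149, 162, 84.4 and 116 CPM in the serum libraries and 223, 248 and 819 CPM in the contact libraries. Contact day 5 was the highest library for miR-497a-5p but not for miR-195a-5p, and the G0 libraries overlapped the others for both.

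**Figure D2:**
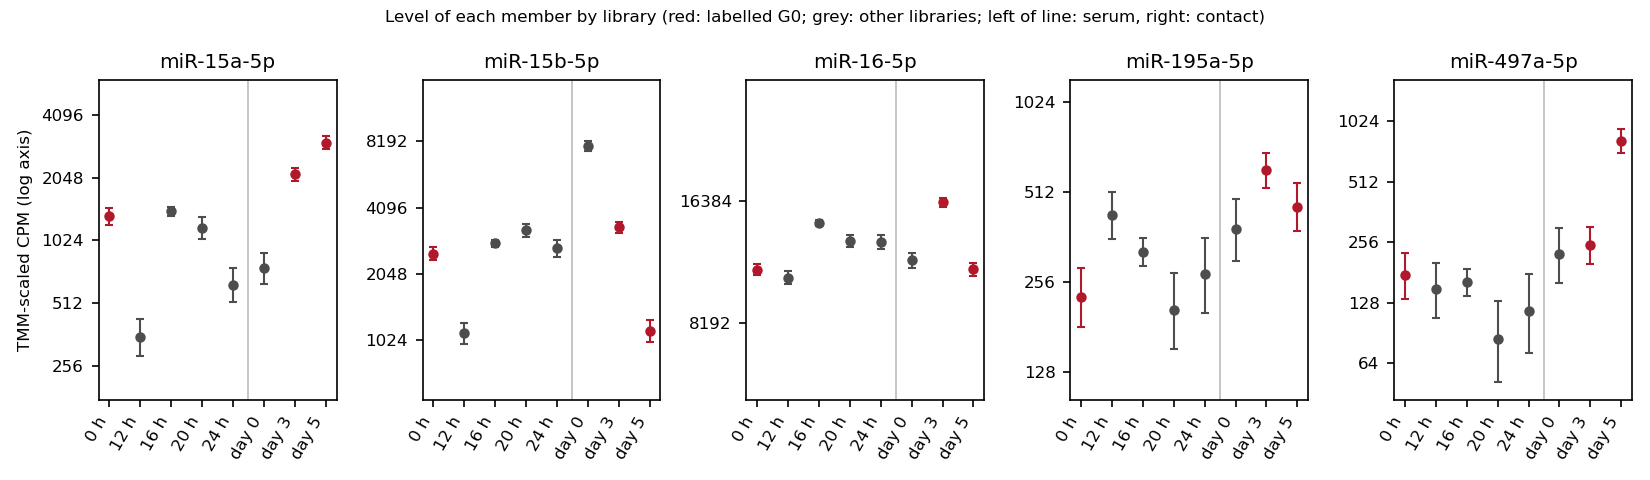
Each panel plots 1 member's TMM-scaled CPM on a log axis for the 8 libraries, with 95% counting intervals; red points are the 3 libraries labelled G0. miR-15a-5p is highest (3018 CPM) and miR-15b-5p near its lowest (1133 CPM) at contact day 5, and miR-16-5p stays between 10599.7 and 16262 CPM.

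The comparison of the 3 G0 libraries with the other 5 asked for an average difference with the G0 label over both experiments. It does not ask for a difference in each of them. Of 347 arms tested, edgeR called 3 (0.865%), and 0 of the 8 member arms were called. None of the 5 members' 5p arms had an edgeR unadjusted p under 0.05, against 39 of all 347 arms. With 5 arms, no difference from this background can be read. DESeq2 called 0 of these 5 as well. No level had its G0 libraries all above or all below the others among the 3 members with at least 50 reads in every library, against 9.17% of 109 arms. The log2 difference was 1.13 (SE 0.63) for miR-15a-5p, with an edgeR adjusted p of 0.538, and −0.76 (SE 0.54) for miR-15b-5p, with an adjusted p of 0.628. For miR-497a-5p it was 0.82 (SE 0.83, edgeR adjusted p 0.707). Leaving out 1 library moved the value of miR-15a-5p most without contact day 0 (0.60) and serum 0 h (2.03), and that of miR-497a-5p without contact day 5 (0.30), contact day 0 (0.46) and serum 0 h (1.48).

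For miR-16-5p the log2 difference was −0.01 (SE 0.41), and miR-195a-5p stood at −0.02 (SE 0.68), each with an edgeR adjusted p of 0.989, and both signs turned under other settings. The 3p arms had fewer reads, with log2 differences of −3.37 (SE 2.25) for miR-15b-3p, −1.37 (SE 2.64) for miR-16-1-3p and −2.05 (SE 3.09) for miR-16-2-3p. All 3 were at 0 reads in the serum 0 h library, so these values depend on the prior count. An interaction of G0 with experiment called 0 of 347 arms by edgeR (14 at an unadjusted p under 0.05). In this term miR-15b-5p stood at −1.83 (contact minus serum, adjusted p 0.864) and miR-15a-5p at 1.19 (adjusted p 0.884). The part of the epithelial and blood reads at serum 0 h in these values was not tested.

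In the contact experiment the members differed in how days 3 and 5 stood to day 0. miR-15a-5p was 2.82-fold higher at day 3 than at day 0 (95% interval 2.35 to 3.4) and 4.0-fold higher at day 5 (3.33 to 4.82). miR-15b-5p was 2.32-fold lower at day 3 (2.15 to 2.51) and 6.86-fold lower at day 5 (6.04 to 7.80). miR-497a-5p stood at 1.12 times its day 0 level at day 3, with under 100 reads in both libraries, and was 3.68-fold higher at day 5 (2.62 to 5.27). Thus the 2 relatives miR-15a-5p and miR-15b-5p stood on opposite sides of their day 0 levels on both days, and miR-497a-5p stood apart only at day 5.

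miR-16-5p, which sums the products of both of its hairpins, was 1.39-fold higher at day 3 (1.32 to 1.46) and at 0.95 of its day 0 level at day 5 (0.898 to 1.01). miR-195a-5p was 1.57-fold higher at day 3 (1.20 to 2.09) and at 1.19 times its day 0 level at day 5 (0.877 to 1.62). With TMM scaling neither was 2-fold apart from day 0 on either day. As a share of miRNA reads, however, miR-16-5p stood at 1.99 times its day 0 value at day 3 (1.90 to 2.10). At day 5 its share was 0.938 of the day 0 value.

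Only arms with 100 or more reads in either library were compared. Of these, 1 of 4 members was at least 2-fold higher and 1 at least 2-fold lower at day 3, against 18.3% higher and 20.9% lower of 153 arms. At day 5, 2 of 5 members were higher and 1 lower, against 38% and 27.2% of 158 arms. With only 4 or 5 members compared, no difference from these backgrounds can be read in either direction. The median log2 ratio of the members was 0.56 at day 3 and 0.24 at day 5, and that of all arms −0.24 and 0.35. As shares of miRNA reads, miR-15b-5p was at 0.617 of its day 0 value at day 3 and 0.144 at day 5, miR-15a-5p at 4.04 and 3.95 times, and miR-195a-5p at 2.25 and 1.17 times, so that with this scaling miR-195a-5p and not miR-15b-5p passed 2-fold at day 3 (backgrounds 28.8% higher and 5.88% lower).

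Between days 3 and 5, miR-15b-5p was a further 2.95-fold lower (2.60 to 3.37) and miR-497a-5p 3.29-fold higher (2.56 to 4.27), against backgrounds of 17.1% lower and 26.8% higher. miR-15a-5p stood at 1.42 times (1.28 to 1.57), miR-16-5p at 0.682 (0.652 to 0.714) and miR-195a-5p at 0.754 (0.597 to 0.948) of their day 3 level. As shares of miRNA reads miR-15a-5p stood at 0.978, miR-195a-5p at 0.520 and miR-16-5p at 0.471, so that miR-16-5p was then also at least 2-fold lower (backgrounds 17.7% higher and 27.4% lower).

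In the serum experiment the starved library was not set apart from all released ones in any member. Against 4% higher and 6.22% lower of 225 arms, 0 of 5 members were at least 2-fold higher or lower at 0 h than in every released library. miR-15a-5p at 0 h was 3.80-fold its 12 h level (3.05 to 4.77) and 2.13-fold its 24 h level (1.73 to 2.65), the 2 libraries labelled G1, but 0.947 (0.851 to 1.05) and 1.14 (0.976 to 1.32) times its levels at 16 h and 20 h. miR-15b-5p at 0 h was 2.29-fold its 12 h level (2.01 to 2.62) and between 0.783 and 0.941 of the other 3. miR-16-5p at 0 h lay between 0.765 and 1.04 times its level in the released libraries.

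After serum, miR-15a-5p was 4.02-fold (3.27 to 4.97) and miR-15b-5p 2.57-fold (2.28 to 2.89) higher at 16 h than at 12 h, against 31.5% higher and 19.4% lower of 222 arms. miR-16-5p was 1.36-fold higher, miR-195a-5p stood at 0.751 and miR-497a-5p at 1.09 of the 12 h level. From 16 h to 20 h no member was 2-fold apart (backgrounds 12.4% higher and 14.7% lower), with miR-497a-5p at 0.520 (0.31 to 0.83) and miR-195a-5p at 0.641 (0.465 to 0.867). From 20 h to 24 h miR-15a-5p stood at 0.532 (0.423 to 0.664) and no member was 2-fold apart (3.82% higher and 4.58% lower). Between the 2 libraries labelled G1, miR-15b-5p was 2.43-fold higher at 24 h than at 12 h (2.11 to 2.82), against 10.1% higher and 19.5% lower of 149 arms. The calls at 16 h and 24 h rest on the serum 12 h library, in which the 99 reads of miR-15a-5p were 3 different sequences and the 311 reads of miR-15b-5p were 2. That library also held the 200 pluripotent marker reads and no neural ones, whose part in these calls was not tested.

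Ratios of reads within a library need no scaling and set the relatives side by side. The ratio of miR-15b-5p to miR-15a-5p reads was 1.89, 3.14, 2.01, 2.74 and 4.29 at serum 0, 12, 16, 20 and 24 h, and 10.3, 1.57 and 0.375 at contact days 0, 3 and 5. The 3 G0 libraries held the 3 lowest values and did not overlap the other 5, and contact day 5 was the only library with more miR-15a-5p than miR-15b-5p reads. Serum 0 h (95% interval 1.69 to 2.12) and serum 16 h (1.88 to 2.14) were within counting error of each other.

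The mean log2 ratio was 0.05 ± 1.28 (SD, n = 3) in the G0 libraries and 1.91 ± 0.90 (SD, n = 5) in the others, a difference of −1.86. This ratio was singled out after its values were seen, so it is given with no test. Over all 5886 pairs of arms with at least 50 reads in every library, 8.53% had ratios whose G0 libraries did not overlap the others. In 2.16% of the pairs the ratio changed at least as much from contact day 0 to day 5. The difference was −3.74 in the contact experiment alone and −0.63 in the serum experiment alone, and without contact day 5 it was −1.13.

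The ratio of miR-16-5p to miR-15a-5p was 8.29, 30.2, 10.2, 11.1 and 20.7 in the serum libraries and 15.5, 7.64 and 3.68 in the contact libraries. Its G0 libraries, also the lowest 3, did not overlap the others, against 8.53% of the 5886 pairs of arms. It has miR-15a-5p in common with the ratio above, so the 2 are not separate observations, and it is given with no test. The ratio of miR-16-5p to miR-15b-5p was 4.38, 9.60, 5.11, 4.04 and 4.83 in the serum libraries and 1.5, 4.86 and 9.79 in the contact libraries. Here the G0 libraries overlapped the others, and contact day 0 stood lowest.

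**Figure D3:**
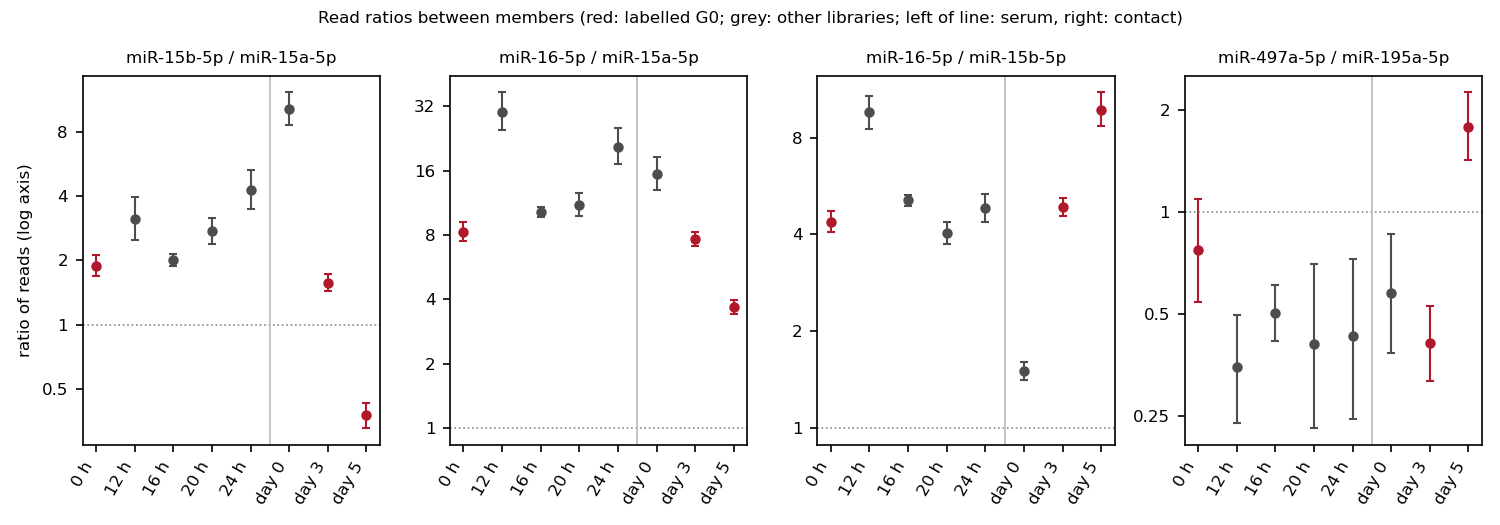
Each panel plots the ratio of reads of 2 members in the 8 libraries on a log axis, with 95% counting intervals; the dotted line marks equal reads and red points are the libraries labelled G0. The miR-15b-5p to miR-15a-5p ratio is lowest in the 3 red libraries (1.89, 1.57 and 0.375) and highest at contact day 0 (10.3).

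Partners cut from 1 transcript were then compared, to ask whether they keep their proportion. In the miR-497 and miR-195a pair, the ratio of miR-497a-5p to miR-195a-5p reads was 0.769, 0.347, 0.503, 0.408 and 0.429 in the serum libraries and 0.577, 0.409 and 1.79 in the contact libraries. By reads, miR-497a-5p was thus the minor partner in 7 of 8 libraries, but at serum 0 h the 95% interval (0.540 to 1.09) included equal reads. It was the major one at contact day 5 (95% interval 1.42 to 2.26). The intervals of the other libraries overlapped one another in part, and contact day 5 lay above all of them.

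For the other pairs the 3p arms stand in for miR-16-1 and miR-16-2, whose 5p products cannot be told apart. miR-16-1-3p had 0, 0, 13, 4 and 4 reads in the serum libraries and 2, 2 and 9 in the contact libraries, beside 456, 99, 1470, 279 and 113, and 139, 754 and 778 reads of miR-15a-5p. miR-16-2-3p had 0, 0, 44, 14 and 0 reads in the serum libraries and 2, 4 and 5 in the contact libraries, beside 863, 311, 2950, 765 and 485, and 1430, 1185 and 292 reads of miR-15b-5p. These counts take reads of the main 5′ start only and are at or near the limit of 3 reads in many libraries. With the reads that start earlier, at the RefSeq start or before, those of miR-16-2-3p were 0, 0, 72, 28 and 2 in the serum libraries and 4, 11 and 15 in the contact libraries. The tests below use the main start alone, and other starts were not tested.

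Of 69 pairs of neighbouring hairpins tested by limma, 0 were called (0%), 13 with an unadjusted p under 0.05. The change in log2 ratio (G0 minus other) was −2.63 (SE 0.95, limma adjusted p 0.184) for miR-16-1-3p over miR-15a-5p, 0.61 (SE 1.59, adjusted p 0.791) for miR-15b-5p over miR-16-2-3p and 0.73 (SE 0.63, adjusted p 0.569) for miR-497a-5p over miR-195a-5p. With 0 reads of a partner the value depends on the 0.5 reads added to each count. When at least 10 reads of each partner were asked for, 6 pairs were called and only the miR-497 and miR-195a pair of these loci could be tested (limma adjusted p 0.409; 0.282 to 0.945 over its alternatives).

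The 5p arm gave most reads of every member. miR-15b-3p had the largest 3p share, with 0 of 863 reads at serum 0 h, which allows up to 0.348%, and 2.20%, 3.02%, 2.30% and 2.41% at 12, 16, 20 and 24 h. At contact days 0, 3 and 5 it made up 1.52%, 1.99% and 2.01%. Serum 0 h was the only library without a read of it, and its Clopper-Pearson 95% upper bound of 0.427% lay below the lower bound of each other library.

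For the miR-16 hairpins together the 3p share over all libraries was 0.270% (0.221% to 0.327%), or 0.429% (0.367% to 0.499%) when reads of any 5′ start were counted. No 3p read was seen in 3778 at serum 0 h, which allows up to 0.0794%, or in 2986 at 12 h, which allows up to 0.100%. The highest share was 0.579% at serum 20 h, or 1.01% with any start. miR-15a-3p had 3 of 4091 reads (0.0733%), 1 at serum 20 h and 2 at contact day 3. miR-497a-3p had 2 of 654 reads (0.306%) and miR-195a-3p 0 of 1037, which allows up to 0.289%.

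The median share of the minor arm over 140 hairpins was 2.54%, and 30.7% of them had under 1%. By limma, 1 of 140 hairpins (0.714%) changed its arm ratio with G0, and it was no member. The log2 change of 3p over 5p was −2.80 (SE 1.23, adjusted p 0.523) for miR-15b, and the other members had adjusted p of 0.612 to 0.922. Without the serum 0 h library the miR-15b value was 0.45 (adjusted p 0.985).

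The 3′ ends differed between members and between experiments. miR-15b-5p ended mostly after 21 or 22 bases. Base 22 of its reference is an A, so an A added to the 21-base form cannot be told from the 22-base form. Its 22-base form made up 34.0%, 16.7%, 43.2%, 47.5% and 47.6% of its reads in the serum libraries and 68.3%, 55.7% and 51.4% in the contact libraries. Its 21-base form made up 57.2%, 83.3%, 50.7%, 49.4% and 47.4%, and 29.2%, 41.8% and 43.5%. The longer form was the more common in all 3 contact libraries, and the shorter one in 4 of the 5 serum libraries.

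miR-15a-5p was most often 1 or 2 bases shorter than its reference of 22 bases. Its 20-base form made up 22.4%, 0%, 25.6%, 23.7% and 40.7% of its reads in the serum libraries and 46.8%, 49.6% and 47.9% in the contact libraries. At serum 12 h 52.5% of its reads were a single form of 24 bases, which stood at 0% to 4.61% elsewhere. The contact libraries, G0 or not, lay within 3 percentage points of each other.

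miR-16-5p was mostly of 22 bases, at 57.8% to 67.8% in the serum and 63.1% to 72.4% in the contact libraries. A form of 21 bases made up 5.27%, 6.10%, 7.02%, 7.67% and 7.01% of its reads in the serum libraries. In the contact libraries it had 0 of 2150, 7 of 5760 (0.122%) and 0 of 2860 reads. It separated the experiments and not the phases. miR-195a-5p, which ends in the same bases, had 4 to 29 reads of its 21-base form in each serum library and 0, 0 and 1 in the contact libraries, and its most common form was of 22 bases in 7 of 8 libraries, with 12.2% at serum 24 h.

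**Figure D4:**
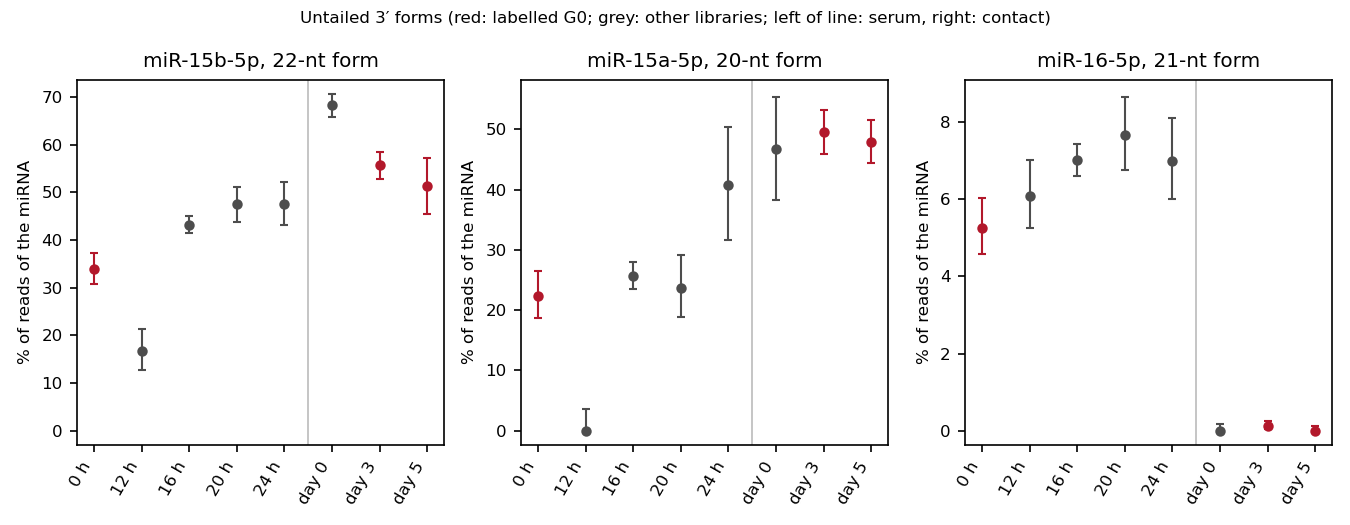
Each panel plots the share (%) of a member's reads that end untailed at the stated length, with Clopper-Pearson 95% intervals, in the 8 libraries. The 21-base form of miR-16-5p lies between 5.27% and 7.67% in the serum libraries and at 0% to 0.122% in the contact libraries, whatever the phase.

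Tails, bases that are added after transcription, were taken to be the 1 to 3 bases left over after the longest match to the hairpin. A base that the hairpin also holds at that place cannot be told from an added one and was counted as untailed. Conversely, a sequencing error after base 20 and within the last 3 bases of an insert was counted as a tail. The part of such errors in the tailed shares was not tested. Tailed reads made up 11.6% of all miR-16-5p reads, 13.6% of miR-15a-5p, 14.2% of miR-195a-5p, 27.8% of miR-497a-5p and 2.22% of miR-15b-5p. Among the tailed reads, A alone made up 81.5% for miR-15b-5p, 89.1% for miR-195a-5p, 76.9% for miR-15a-5p and 90.4% for miR-16-5p. For miR-497a-5p the pooled shares were 48.1% A and 40.3% U (read as T), but these varied by library. U alone made up 36 of its 66 tailed reads at serum 16 h, 9 of 9 at 24 h, 22 of 47 at contact day 5, 5 of 15 at day 0 and 1 of 16 at day 3, and none of those at serum 0 h and 20 h.

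miR-16-5p was tailed in 12.3%, 6.46%, 11.3%, 8.90% and 9.14% of its reads in the serum libraries and 13.8%, 15.5% and 12.5% in the contact libraries. Serum 12 h was the lowest and contact day 3 the highest. miR-15a-5p was tailed in 14.3%, 0%, 18%, 12.9% and 2.65% in the serum libraries and 12.2%, 9.81% and 12.2% in the contact libraries. Both low values came from the libraries with the fewest of its reads, 99 and 113.

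miR-15b-5p was tailed in 8.57%, 0%, 2.10%, 0.392% and 0.619% of its reads in the serum libraries and 1.47%, 1.35% and 1.71% in the contact libraries. It ranked 106th or 107th of 108 arms by tailed share in 6 libraries, 95th at serum 12 h and 70th at serum 0 h, where 74 of its 863 reads were tailed, 71 of them as 1 sequence of 22 bases and A. The median over these arms was 13.3% to 18.9%. Base 22 of miR-15b-5p is itself an A, so an A added to its 21-base form was counted as untailed. The part of this in its low tailed share and rank was not tested. miR-15a-5p ranked 51st to 75th in 6 libraries, 95th at serum 12 h, where it tied with miR-15b-5p at 0%, and 103rd at serum 24 h.

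**Figure D5:**
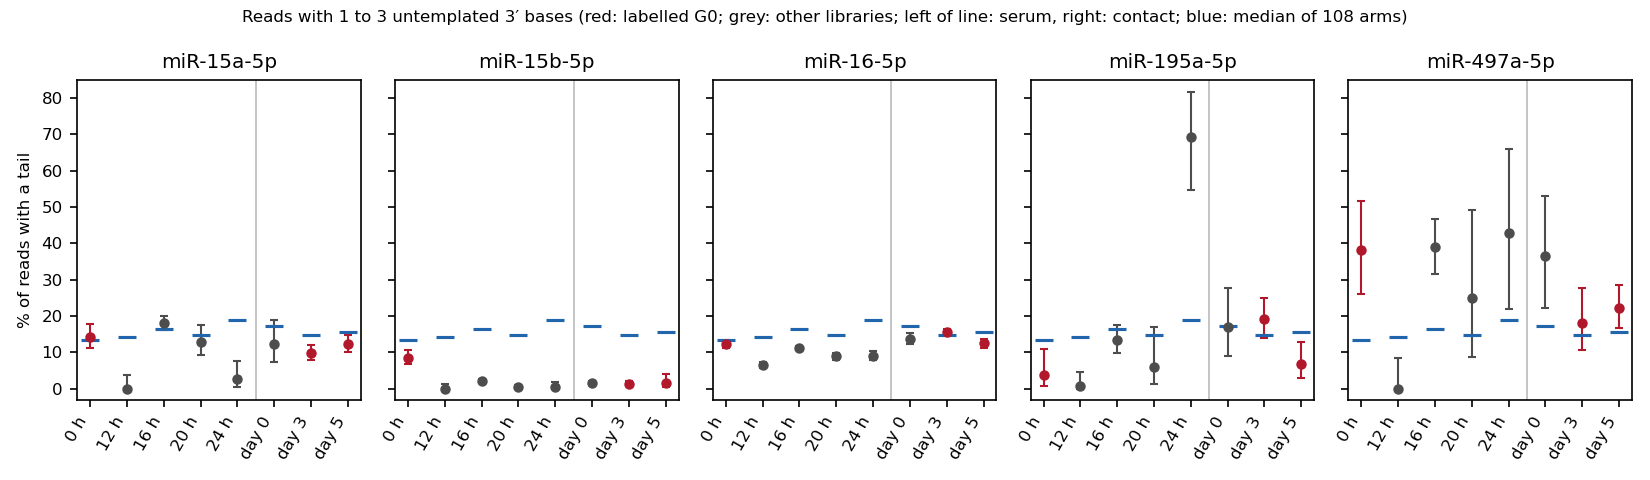
Points give the share (%) of each member's reads with 1 to 3 untemplated 3′ bases in the 8 libraries, with Clopper-Pearson 95% intervals; blue dashes mark the median of 108 arms and red points the libraries labelled G0. miR-15b-5p lies under the dashes in all libraries, at 8.57% or less, and miR-195a-5p at serum 24 h stands at 69.4%.

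Of 108 arms tested by limma for tailing, 0 were called (0%), 15 with an unadjusted p under 0.05. The log2 odds of a tail differed by 2.24 (SE 1.16, limma adjusted p 0.435) for miR-15b-5p, 0.89 (SE 1.43, adjusted p 0.949) for miR-15a-5p and 0.30 (adjusted p 0.835) for miR-16-5p. Without serum 0 h the miR-15b-5p value was 0.11 and without contact day 0 it was 4.02 (adjusted p 0.997 and 0.163; 0.163 to 0.997 over all alternatives). Both miR-195a-5p and miR-497a-5p fell under the minimum of 50 reads in some library and were not tested.

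The 5′ ends, which set the seed, were nearly uniform for the 5p arms but not for all 3p arms. The main start held 97.5% to 98.9% of reads for miR-15a-5p, miR-15b-5p, miR-16-5p and miR-195a-5p. miR-497a-5p started there in 92.0% of reads and 1 base later in 7.62%. miR-15b-3p had 89.5% of its 133 reads at its main start and miR-16-2-3p 50% of 126. Of its other reads 63 started earlier, nearly all by 1 base, at the RefSeq start, so that its reads carried 2 different seeds. The earlier reads outnumbered the counted ones at contact day 3 (7 against 4) and day 5 (10 against 5), and there were 14 of each at serum 20 h.

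Relatives with the same first 6 seed bases were searched among all arms, and 2 more were found with reads, miR-322-5p and miR-503-5p, neighbours on chromosome X. They are shown because miR-322-5p carries the members' seed whole and miR-503-5p differs from it in the last base.
miR-322-5p: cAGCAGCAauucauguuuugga
miR-503-5p: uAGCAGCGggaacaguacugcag
miR-322-5p and miR-15a-5p had parallel levels, with Pearson r = 0.91 over the 8 libraries on the log2 CPM scale, a description of points that share library, depth and scaling. Among the 73 arms with at least 100 reads in every library that were compared, only miR-29c-3p, a repressor of collagens, was closer to miR-15a-5p (r = 0.95).

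For miR-15b-5p the closest arms were miR-222-3p (r = 0.79) and miR-99b-5p (0.76), and for miR-16-5p they were miR-27a-3p (0.82) and miR-106b-5p (0.63). miR-195a-5p was closest to miR-93-5p (0.75) and let-7e-5p (0.75), and miR-497a-5p to let-7i-5p (0.94) and miR-411-5p (0.93). Among the members themselves r ranged from −0.33 for miR-15b-5p and miR-497a-5p to 0.63 for the partners miR-195a-5p and miR-497a-5p. For miR-15a-5p and miR-15b-5p it was −0.03.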

How the data were processed

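The deposited files list, for each of the 8 libraries, distinct 36-nt reads and the count of each. Library preparation is given in the labels by citation only. What read caller, filter and genome build the authors had is not given in the sources used here. In Python 3.11.15 (pandas 2.3.3) the 3′ adapter was trimmed where at least 6 bases of it were seen, and inserts of 16 to 30 nt were kept. A read was counted for an arm when its first 20 bases were identical; arms were defined from the reads on GENCODE M21 hairpins (GRCm38), at 10 reads or more.

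The fit over all arms was edgeR 4.0.16 in R 4.3.3 (TMM, quasi-likelihood, experiment as a term, 2-sided Benjamini-Hochberg adjusted p under 0.05) on the 347 arms with at least 10 CPM in at least 3 libraries. Partner, arm and tail ratios were fitted with limma 3.58.1, after adding 0.5 to each count. Alternatives were DESeq2 1.42.0, other scalings, filters and read matches, and leaving out each library in turn. Ratios of single libraries have exact conditional binomial 95% intervals, and shares have Clopper-Pearson ones. A count of 0 is given the limit of 3 reads per library. Without molecular identifiers these intervals and limits hold for counting error alone. Named miRNAs were all member arms, relatives with the seed AGCAGC, and for each member the 2 arms of highest r. Scripts were tested on simulated data. The members, lists and tests were chosen with earlier results of these data known.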

Additional observations from a re-analysis of the deposited data

Results flagged for a closer look

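Among the 5 libraries not labelled G0, 2 values of the members stood far from the rest of their group by Dixon's test. That test flags about 1 in 20 groups by chance. The number of groups screened is not given here, so the 2 flags cannot be set against that rate. The tailed share of miR-195a-5p was 69.4% at serum 24 h, against 0.826% to 16.9% in the other 4. These 34 tailed reads of 49 were 1 sequence ending in A, and only 4 different sequences of miR-195a-5p were seen in that library. The ratio of miR-15b-5p to miR-15a-5p was 10.3 at contact day 0, against 2.01 to 4.29 in the 4 released serum libraries. Its gap over the range was 0.724, just past the limit of 0.71. This was computed on the ratio itself and not on its log2, the scale of the means above. Contact day 0 is the only library of the 5 from the contact experiment, so the experiment and the value cannot be told apart.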

How the results depend on the processing

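Under every setting run, 0 of the 5 members' 5p arms were called between G0 and other libraries. Over all arms 3 were called, against 14 by DESeq2, 8 with no filter, 1 without the experiment term and 0 to 12 leaving out 1 library. The differences of miR-16-5p and of miR-195a-5p turned positive with total miRNA reads as scaling (0.23 and 0.21), without the experiment term (0.0295 and 0.41) and with 18 bases (0.0833 and 0.0669), and that of miR-195a-5p with whole reads (0.18). Leaving out 1 library gave −0.19 to 0.54 and −0.42 to 0.77 for these, −1.45 to 0.0518 for miR-15b-5p, 0.60 to 2.03 for miR-15a-5p and 0.30 to 1.48 for miR-497a-5p, whose value without the experiment term was 1.49. The tail odds of miR-15b-5p then ran from 0.11 to 4.02. Partner ratios gave 0 calls, against 2 with a minimum of 50 reads, 6 with 10 reads of each partner and 0 to 1 leaving out 1 library. Arm ratios gave 1 call, against 0 without the experiment term, 0 with 10 reads of each arm and 0 to 1 leaving out 1 library; tails gave 0, against 0 to 1.

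Without serum 0 h the arm change turned to 0.45 for miR-15b and 0.19 for miR-16, the ratio of miR-15b-5p to miR-16-2-3p to −2.27 and the tail odds of miR-15a-5p to −0.21; without contact day 0 the arm change of miR-195a turned to 0.35. Leaving out 1 library gave −5.50 to 0.45, −3.64 to 0.19, −1.16 to 0.35, −2.27 to 3.01 and −0.21 to 1.81 for these. Members at least 2-fold apart numbered 1 with a minimum of 500 reads and 3 with total miRNA reads as scaling, not 2, between contact days 3 and 5. Between serum 12 h and 24 h they numbered 2 with 18 bases, 0 with 500 reads and 3 at 1.5-fold, not 1. At 1.5-fold they numbered 2 between 16 h and 20 h and 1 between 20 h and 24 h, not 0. The log2 ratio of miR-15b-5p to miR-15a-5p (−1.86) was −3.74 in the contact and −0.63 in the serum experiment alone, −2.29 to −1.13 leaving out 1 library, −1.81 with 18 bases and −1.86 with whole reads. The alternatives to this ratio, and those asking for 10 reads of each partner or arm or counting any 5′ start, were chosen after seeing the data. Unless named, the cause of a change was not tested.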

Other observations

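Reads of miR-16-5p, the deepest member, were spread over fewer different sequences in 3 serum libraries than in 2 contact libraries of like or lower depth. It was seen as 18 different sequences in 3778 reads at serum 0 h, 13 in 2986 at 12 h and 16 in 3090 at 20 h, against 37 in 2150 at contact day 0 and 29 in 2860 at day 5. This did not hold for every member: miR-15b-5p had 7 in 863 reads at serum 0 h and 6 in 1430 at contact day 0, and miR-195a-5p had 6 in 49 at serum 20 h and 5 in 71 at contact day 0. At serum 12 h all 42 reads of miR-497a-5p were 1 sequence. Counting intervals treat each read as independent, and whether these reads came from fewer molecules was not tested.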
